A study of Mus musculus with 8 samples.

Results

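The genes described here are Nfe2l2, which encodes the transcription factor NRF2, with antioxidant genes of its programme (Slc7a11, Slc3a2, Hmox1, Nqo1, Gclm, Txnrd1 and Prdx1) and the ferritin subunit genes Fth1 and Ftl1. The rule is a list of symbols. They are 10 genes of the 54446 gene rows in each library, and all 10 were found. RNA from eosinophils sorted in a mouse model of asthma had been sequenced by CEL-Seq, a 3′-end counting method that amplifies RNA by in vitro transcription. There were 4 libraries of resident eosinophils, numbered 3 to 6, 2 of Siglec-Fint/CD101- eosinophils and 2 of SiglecFhi/CD101+ eosinophils. Every library is labelled C57BL/6 and no engineered allele is named for any group. Treatment, age, tissue of each sort and the number of mice per library are not given in the labels, and lung is named only for the resident cells, in the title of the study. Nothing in the labels says whether the libraries of a group came from separate mice, so the p-values measure the spread between these libraries, which may be technical. The SiglecFhi/CD101+ and Siglec-Fint/CD101- cells are called the sorted subsets below.

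NRF2 is a basic leucine zipper factor that is held in the cytoplasm and marked for degradation by KEAP1. Electrophiles and oxidants modify cysteines of KEAP1, newly made NRF2 then enters the nucleus, pairs with small MAF proteins and binds the antioxidant response element. Its activity is therefore set largely at the protein level, which RNA counts do not measure. The targets import cystine (Slc7a11, whose protein pairs with the heavy chain encoded by Slc3a2), break down haem (Hmox1), reduce quinones (Nqo1), make glutathione (Gclm) and run the thioredoxin system (Txnrd1, Prdx1). Haem breakdown releases iron, which ferritin, a shell built of heavy (Fth1) and light (Ftl1) chains, oxidises and stores. Ferritin is controlled both by NRF2 and by iron regulatory proteins, which bind a hairpin in its mRNA and block translation when iron is scarce.

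The promoter sequences are shown because they can hold response elements through which the programme is read. RefSeq promoters (build GRCm38.p6, 300 bases, of which 250 lie before the start) had an entry for 9 of the 10 genes, with 12 entries in all, and Hmox1 was the gene with none. They were searched on both strands for the antioxidant response element core in its forms TGACNNNGC and TGAGNNNGC, for the amino acid response element TGATGCAA, which ATF4 binds, and for the AP-1 site TGAGTCA. At least 1 of these occurred in 5 genes. TGACNNNGC occurred in 4 genes (Nfe2l2, Gclm, Txnrd1 and Prdx1), and in 12.39% of all 32851 such promoters. TGAGNNNGC occurred in 2 genes (Slc7a11 and Prdx1) and in 17.65% of promoters, TGATGCAA in 1 gene (Slc7a11) and 0.89%, and TGAGTCA in 1 gene (Prdx1) and 5.2%. The Slc7a11 promoter held TGATGCAA on both strands, in bases -66 to -59 and -47 to -40 from the start. In Prdx1 the match in bases -133 to -125 is shared by TGACNNNGC and TGAGTCA, which overlap there. Its TGAGNNNGC match, in bases 15 to 23, lies after the start and outside the stretch shown. A match describes letters and is not evidence of binding, and no match says only that these letters are not in the window. The stretches below are written 5′ to 3′ on the gene's strand, with the matches that lie before the start in capitals. Those of Slc7a11 lie at chr3:50443633-50443730 (minus strand), of Nfe2l2 at chr2:75704875-75704913 (minus strand), of Gclm at chr3:122245403-122245451 (plus strand), of Txnrd1 at chr10:82859094-82859142 (plus strand, the second of its promoters in the table) and of Prdx1 at chr4:116685349-116685494 (plus strand).
Slc7a11: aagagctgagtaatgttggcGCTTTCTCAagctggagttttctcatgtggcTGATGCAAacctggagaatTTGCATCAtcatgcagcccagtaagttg
Nfe2l2: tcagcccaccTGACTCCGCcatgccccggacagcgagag
Gclm: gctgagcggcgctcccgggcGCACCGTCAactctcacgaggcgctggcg
Txnrd1: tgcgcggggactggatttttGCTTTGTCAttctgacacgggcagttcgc
Prdx1: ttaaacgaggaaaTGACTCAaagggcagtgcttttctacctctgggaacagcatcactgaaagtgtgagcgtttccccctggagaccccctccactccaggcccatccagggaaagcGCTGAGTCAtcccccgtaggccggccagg

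The ferritin mRNAs are shown at the iron responsive element, the hairpin that iron regulatory proteins bind. Its loop motif (the letters CAGTG, an unpaired C upstream of them and any base after them, sense strand only) was found within the first 200 bases of a GENCODE transcript of Fth1 (bases 93 to 104) and of Ftl1 (bases 84 to 95), where capitals mark CAGTG and the base after it. The same motif occurred in 8.07% of the 58616 protein-coding transcripts searched in that way. Among the members it matched 3 of 5 transcripts of Fth1, 1 of 2 of Ftl1, 2 of 5 of Gclm and 1 of 5 of Txnrd1.
Fth1: ggtttcctgcttcaaCAGTGCttgaacgga
Ftl1: tgtgtcttgcttcaaCAGTGTttgaacgga

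The libraries differed in depth and content along the lines of the groups. Total counts were 5600610 to 11583550 in resident libraries and 1513517 to 3109428 in the subsets. Genes of the mitochondrial genome took 38.57% to 61.83% of counts in resident libraries and 69.88% to 83.9% in the subsets, which left 2137819 to 5296468 and 444902 to 552121 other counts. Levels are given as CPM, counts scaled to a common library size after TMM normalisation, and 1 count was worth 0.0662 to 0.166 CPM in resident and 0.528 to 0.724 CPM in subset libraries. The eosinophil markers summed to 19.0 to 77.5 CPM in resident, 0.724 to 22.9 in Siglec-Fint/CD101- and 53.8 to 261 in the SiglecFhi/CD101+ libraries. The granule gene Epx and the receptor gene Il5ra were at 0 in all 4 subset libraries. In resident cells Epx was at 0 in 3 of 4 libraries (at most 1.74 CPM) and Il5ra in 2 of 4 (at most 3.77 CPM). Ccr3, on the same list, had 0 and 20.4 CPM in the Siglec-Fint/CD101- pair. It had at most 4.22 CPM in SiglecFhi/CD101+ and 3.56 CPM in resident libraries. Siglecf was at 0 in both Siglec-Fint/CD101- libraries, and Prg3 was at 0 throughout. Cd101, the gene of a sort marker, had 2 and 1 counts (1.06 and 0.607 CPM) in the SiglecFhi/CD101+ libraries and 4.19 to 33.4 CPM in resident libraries, so its RNA goes against the label of the CD101+ libraries. Siglecf itself had 19 and 44 counts (10.02 and 26.7 CPM) there, within the resident range of 4.26 to 43.7 CPM. Most of the SiglecFhi/CD101+ marker sum was the granule gene Prg2, at 38.5 and 234 CPM. The names of all groups are therefore those of the labels, and the RNA markers do not establish them. Marker sums for lung epithelium were 1008 to 14297 CPM in resident and 4597 to 7871 in subset libraries, those for B and T cells 34.6 to 85.5 and 84.4 to 298, those for endothelium and fibroblasts 152 to 967 and 649.8 to 945, and those for red cells 983 to 9745 and 2525 to 7642. The macrophage sum was 213 to 583 CPM in resident, 269 and 677 in the Siglec-Fint/CD101- pair, and 154 and 221 in the SiglecFhi/CD101+ pair, and the dendritic cell sum 86.6 to 135, 97.0 to 151 and 17.6 to 108. Within the macrophage list, C1qc had 33.8 to 198 CPM in resident libraries, 91.5 to 185 in the Siglec-Fint/CD101- pair and 1.82 to 3.69 in the SiglecFhi/CD101+ pair, and Mrc1 had 19.6 to 47.6, 18.5 to 23.9 and 0.607 to 1.06. The other genes of that list (C1qa, C1qb, Adgre1, Marco, Fabp4 and Mertk) overlapped between SiglecFhi/CD101+ and resident libraries. The part these markers and the depth play in the results below was not tested, and in bulk RNA fewer cells of a type cannot be told apart from less RNA per cell.

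Nfe2l2 and Hmox1 were lower in every subset library than in any resident library, Slc7a11 was higher in every subset library, and Fth1 took 0.279% to 0.452% of the counts outside the mitochondrial genome in all 8. None of the 9 members tested passed an adjusted p of 0.05 in any comparison by edgeR's quasi-likelihood test. Nqo1 had too few counts to be tested.

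**Figure D1:**
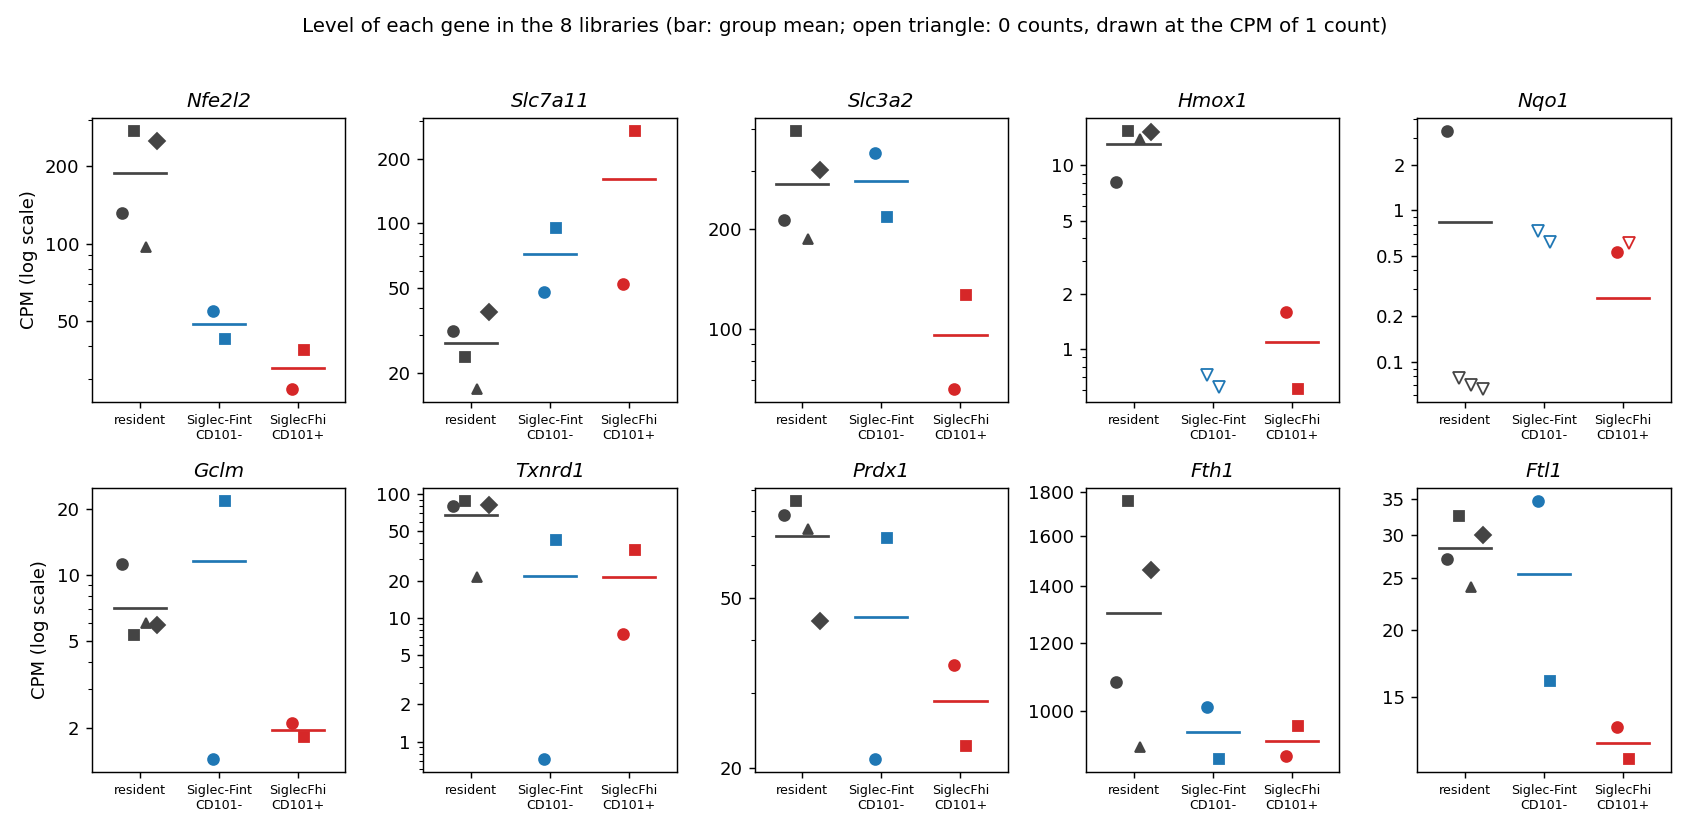
CPM of each of the 10 genes (log axis, a scale of its own per panel) in 4 resident, 2 Siglec-Fint/CD101- and 2 SiglecFhi/CD101+ libraries. Points are libraries, with 1 symbol per replicate position, bars are group means and open triangles mark 0 counts; Nfe2l2 and Hmox1 lie lower and Slc7a11 higher in all 4 subset libraries than in the resident ones.

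Nfe2l2 (ENSMUSG00000015839, chromosome 2, 75675513 to 75704641, minus strand, GRCm38) had 131, 272, 96.8 and 250 CPM in resident replicates 3, 4, 5 and 6. It had 55.0 and 42.6 CPM in Siglec-Fint/CD101- replicates 1 and 2, and 27.4 and 38.8 CPM in SiglecFhi/CD101+ replicates 1 and 2. The lowest resident library, replicate 5, was above every subset library, and the SiglecFhi/CD101+ pair was below the Siglec-Fint/CD101- pair. Means were 188 ± 86.7 CPM (SD, n = 4), 48.8 ± 8.74 CPM (SD, n = 2) and 33.1 ± 8.07 CPM (SD, n = 2). The values rest on 52 to 76 counts in subset libraries and 790 to 3783 in resident ones. Against resident cells the log2 fold change was -2.50 ± 0.69 (SE) in SiglecFhi/CD101+ cells (edgeR adjusted p = 0.149) and -1.94 ± 0.67 in Siglec-Fint/CD101- cells (edgeR adjusted p = 0.288). Both subsets together differed from resident cells by -2.22 ± 0.52 (edgeR adjusted p = 0.1002), the smallest p of any member. The difference between the subsets was -0.56 ± 0.71 (edgeR adjusted p = 0.716). These comparisons with resident cells share the same 4 resident libraries.

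In the edgeR fit most genes were also lower in the subsets. The median log2 fold change of the 11828 genes tested was -0.72 in SiglecFhi/CD101+ and -0.997 in Siglec-Fint/CD101- against resident cells, -1.28 for both together and 0 between the subsets. Nfe2l2 stood at the 29.8th, 39.8th and 37.3rd percentile of fold changes in the comparisons with resident cells, so many genes lay further down. Its difference from the median gene was therefore smaller than its fold change. Another scaling moved the median from -1.46 (library totals alone) to -0.26 (RLE) in SiglecFhi/CD101+ and from -1.95 to -0.63 in Siglec-Fint/CD101- cells against resident, and Nfe2l2 stayed negative under each of them. In DESeq2, run without the count filter, the medians against resident cells were 0.24 in SiglecFhi/CD101+, 0 in Siglec-Fint/CD101- and -0.05 for both subsets.

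Slc7a11 (ENSMUSG00000027737, chromosome 3, 49892526 to 50443614, minus strand), the cystine and glutamate exchanger, ran the other way. It had 31.4, 23.8, 16.8 and 38.4 CPM in resident replicates 3 to 6. The Siglec-Fint/CD101- libraries had 47.8 and 95.2 CPM, and the SiglecFhi/CD101+ libraries had 52.2 and 269 CPM. All 4 subset libraries were above the highest resident library, and in each subset replicate 2 was the higher. Means were 27.6 ± 9.37 CPM (SD, n = 4), 71.5 ± 33.5 (SD, n = 2) and 161 ± 154 (SD, n = 2). The SiglecFhi/CD101+ fold change against resident, 2.54 ± 0.74 on the log2 scale (edgeR adjusted p = 0.168), became 0.82 without SiglecFhi/CD101+ replicate 2. The Siglec-Fint/CD101- value was 1.37 ± 0.75 (edgeR adjusted p = 0.356), and 0.77 without its replicate 2. Together the subsets differed by 1.96 ± 0.65 (edgeR adjusted p = 0.129). Between the subsets the value of 1.17 ± 0.90 (edgeR adjusted p = 0.4997) turned to -0.52 without SiglecFhi/CD101+ replicate 2. DESeq2, run on the same counts, called Slc7a11 higher in SiglecFhi/CD101+ (3.01, adjusted p = 0.0252) and in both subsets together (2.37, adjusted p = 0.0329).

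The neutrophil marker sum matched the order of Slc7a11 only in part. It was 590 and 1514 CPM in Siglec-Fint/CD101- replicates 1 and 2, 251 and 1051 CPM in SiglecFhi/CD101+ replicates 1 and 2, and 104 to 468 CPM in resident libraries. Most of it was Retnlg, a resistin-like gene of neutrophils, at 549 and 1444 CPM, then 208 and 974 CPM in the same order. SiglecFhi/CD101+ replicate 1 lay within the resident range for the sum and above that range for Slc7a11. Of the 6 markers on that list, 3 to 5 were detected in a resident and 3 or 4 in a subset library. S100a8 was detected in every library, at 3.36 to 20.9 CPM in resident, 11.58 and 14.8 in the Siglec-Fint/CD101- pair, and 26.4 and 43.1 in the SiglecFhi/CD101+ pair. S100a9 was detected in every library too, at 2.74 to 32.6 CPM in resident and 15.8 to 33.4 in subset libraries. Ly6g had 39 counts in Siglec-Fint/CD101- replicate 2 and 0 in every other library. Camp was at 0 in all libraries but resident replicate 3, and Ngp had 1 count over the 4 subset libraries. In both subsets replicate 2 was the higher for Slc7a11 and for the marker sum, and their part in the Slc7a11 level was not tested.

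Within a library the ratio of Slc7a11 to Nfe2l2 counts does not depend on scaling. It was 0.239, 0.0873, 0.174 and 0.154 in resident replicates 3 to 6. It was 0.868 and 2.23 in the Siglec-Fint/CD101- pair, and 1.90 and 6.94 in the SiglecFhi/CD101+ libraries. Every subset library thus had a higher ratio than every resident library, which follows from the levels of the separate genes.

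**Figure D2:**
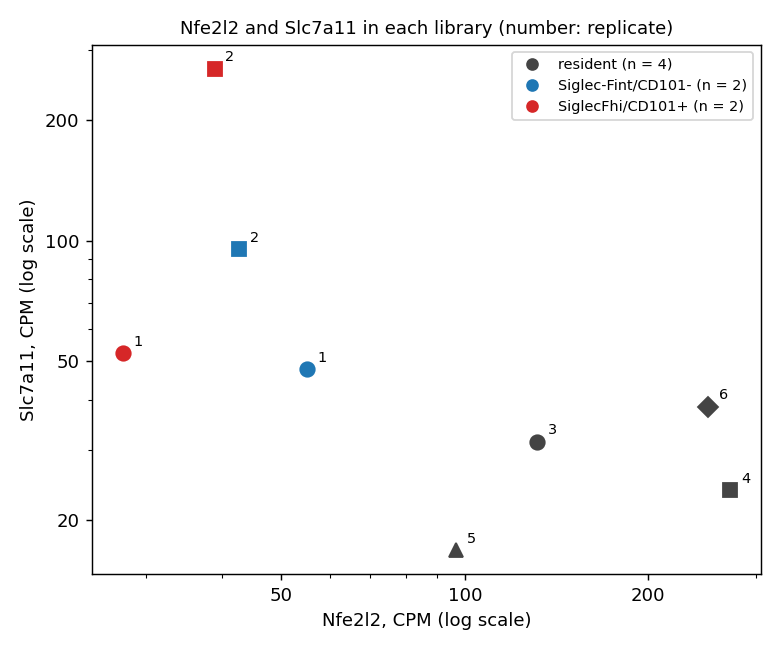
Slc7a11 against Nfe2l2 level in each of the 8 libraries, both in CPM on log axes, coloured by group and numbered by replicate. The 4 resident libraries lie at high Nfe2l2 (96.8 to 272) and low Slc7a11 (16.8 to 38.4), and the 4 subset libraries at low Nfe2l2 (27.4 to 55.0) and higher Slc7a11 (47.8 to 269).

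Slc3a2 (ENSMUSG00000010095, chromosome 19, 8706882 to 8723369, minus strand) encodes 4F2hc, the heavy chain that carries the Slc7a11 protein and other amino acid transporters to the membrane. Its levels were 214, 395, 186 and 301 CPM in resident replicates 3 to 6. They were 339 and 218 CPM in the Siglec-Fint/CD101- pair, and 66.0 and 126 CPM in the SiglecFhi/CD101+ libraries. The SiglecFhi/CD101+ libraries were below all 6 others, while the Siglec-Fint/CD101- libraries lay within the resident range. SiglecFhi/CD101+ cells differed by -1.51 ± 0.54 on the log2 scale from resident cells (edgeR adjusted p = 0.225) and by -1.54 ± 0.59 from Siglec-Fint/CD101- cells (edgeR adjusted p = 0.243). Siglec-Fint/CD101- and resident cells differed by 0.03 ± 0.50 (edgeR adjusted p = 0.988). The exchanger gene and its heavy chain gene thus had their highest and lowest group means in the same SiglecFhi/CD101+ cells. For Slc7a11 this rests on replicate 2 (269 CPM), since replicate 1 (52.2 CPM) was below the Siglec-Fint/CD101- mean of 71.5 CPM. The macrophage markers C1qc and Mrc1 were low in the SiglecFhi/CD101+ pair. The other markers of that list overlapped the resident range, with higher means for C1qa and Fabp4 and lower means for the rest. The part of macrophage RNA in the Slc3a2 level, and in those of Ftl1 and G6pdx below, was not tested.

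Hmox1 (ENSMUSG00000005413, chromosome 8, 75093621 to 75100589, plus strand), the inducible haem oxygenase, had 8.15, 15.3, 13.8 and 15.1 CPM in resident replicates 3 to 6, from 49, 196, 198 and 228 counts. Neither Siglec-Fint/CD101- library held a count, and there were 3 and 1 counts in the SiglecFhi/CD101+ libraries (1.58 and 0.607 CPM). No subset library reached the lowest resident one. Taking 3 counts over the group as the floor, Hmox1 was at least 13.1-fold lower in Siglec-Fint/CD101- than in resident cells. In SiglecFhi/CD101+ cells the count ratio was 12.3-fold in favour of resident cells, with an exact 95% interval of 4.79 to 45.4 that covers counting error only. The adjusted p of edgeR was 0.322 for SiglecFhi/CD101+ (log2 fold change -3.55 ± 1.78), 0.288 for Siglec-Fint/CD101- and 0.106 for both against resident cells. DESeq2 called Hmox1 lower in Siglec-Fint/CD101- cells (adjusted p = 0.0163) and in both subsets together (adjusted p = 0.00302). The constitutive haem oxygenase gene Hmox2, chosen after its values were seen, had the opposite order, at 24.8, 16.2, 39.2 and 34.4 CPM in resident, 127 and 59.3 CPM in the Siglec-Fint/CD101- pair, and 147 and 57.1 CPM in the SiglecFhi/CD101+ libraries. Its value for both subsets, 1.77 ± 0.63 on the log2 scale, did not pass (edgeR adjusted p = 0.144).

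Nqo1 (ENSMUSG00000003849, chromosome 8, 107388225 to 107403206, minus strand), a quinone reductase often used as a readout of NRF2, was close to undetected. It had 20 counts (3.33 CPM) in resident replicate 3, 1 count in SiglecFhi/CD101+ replicate 1 and 0 in the other 6 libraries. No comparison was detectable at this depth, since 3 counts in a subset library stand for 1.58 to 2.17 CPM.

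Gclm (ENSMUSG00000028124, chromosome 3, 122245557 to 122270732, plus strand) encodes the modifier subunit of glutamate-cysteine ligase, which makes the first bond of glutathione. It had 11.1, 5.32, 6.00 and 5.89 CPM in resident replicates 3 to 6, 1.45 and 21.6 CPM in the Siglec-Fint/CD101- pair, and 2.11 and 1.82 CPM in the SiglecFhi/CD101+ libraries. Both SiglecFhi/CD101+ libraries, with 4 and 3 counts, were below all resident ones, while the Siglec-Fint/CD101- pair held the lowest and the highest value of all 8 libraries. The log2 fold changes against resident were -1.84 ± 1.65 in SiglecFhi/CD101+ (edgeR adjusted p = 0.585) and 0.71 ± 1.44 in Siglec-Fint/CD101- cells (edgeR adjusted p = 0.834). The latter was -2.29 without Siglec-Fint/CD101- replicate 2. Exons of Gclm overlap the opposite-strand gene Gm17494, which had 714 counts against 354 for Gclm, and whether counting used strand is not given in the sources used here, so the Gclm values are uncertain.

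Txnrd1 (ENSMUSG00000020250, chromosome 10, 82833951 to 82897712, plus strand), the cytosolic thioredoxin reductase, had 80.0, 87.9, 21.5 and 81.5 CPM in resident replicates 3 to 6. It had 0.724 and 42.6 CPM in the Siglec-Fint/CD101- pair, and 7.39 and 35.2 CPM in the SiglecFhi/CD101+ libraries. In both subsets replicate 2 lay between resident replicate 5 and the other resident libraries, so the groups overlapped. The log2 fold change against resident was -1.64 ± 1.23 in Siglec-Fint/CD101- cells (edgeR adjusted p = 0.484), with -6.53 without Siglec-Fint/CD101- replicate 2 and -0.72 without its replicate 1. In SiglecFhi/CD101+ cells it was -1.67 ± 1.23 (edgeR adjusted p = 0.483), and -3.29 without SiglecFhi/CD101+ replicate 2.

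Prdx1 (ENSMUSG00000028691, chromosome 4, 116685544 to 116700822, plus strand) encodes a peroxiredoxin that is reduced by thioredoxin. Resident replicates 3 to 6 had 78.7, 84.6, 72.8 and 44.3 CPM, Siglec-Fint/CD101- libraries 20.98 and 69.2 CPM and SiglecFhi/CD101+ libraries 34.8 and 22.5 CPM. Only the SiglecFhi/CD101+ pair was fully below the resident range. The log2 fold changes against resident were -1.29 ± 0.83 in SiglecFhi/CD101+ (edgeR adjusted p = 0.418) and -0.63 ± 0.80 in Siglec-Fint/CD101- cells (edgeR adjusted p = 0.707). The latter was -1.75 without Siglec-Fint/CD101- replicate 2 and -0.07 without its replicate 1.

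Fth1 (ENSMUSG00000024661, chromosome 19, 9980598 to 9985098, plus strand), the ferritin heavy chain with its ferroxidase centre, had 1079, 1756, 906 and 1458 CPM in resident replicates 3 to 6. It had 1011 and 878 CPM in the Siglec-Fint/CD101- pair, and 884 and 959.6 CPM in the SiglecFhi/CD101+ libraries. Of the 4 subset libraries, 2 lay below the lowest resident library and 2 within the resident range. As a share of all counts outside the mitochondrial genome Fth1 took 0.303%, 0.452%, 0.279% and 0.416% in resident replicates 3 to 6, 0.306% and 0.295% in the Siglec-Fint/CD101- pair, and 0.304% and 0.355% in the SiglecFhi/CD101+ libraries. The log2 fold changes against resident were -0.50 ± 0.36 in SiglecFhi/CD101+ (edgeR adjusted p = 0.475) and -0.46 ± 0.36 in Siglec-Fint/CD101- cells (edgeR adjusted p = 0.499). They had the smallest standard errors among the members, and scaling moved them more than that error, from -1.1 (library totals alone) to -0.02 (RLE) in SiglecFhi/CD101+ and from -1.28 to -0.08 in Siglec-Fint/CD101- cells. Without resident replicate 4 they were -0.2 and -0.25. The value between the subsets was -0.03 ± 0.41 (edgeR adjusted p = 1).

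Ftl1 (ENSMUSG00000050708, chromosome 7, 45457944 to 45459884, minus strand), the ferritin light chain, had 27.1, 32.6, 24.1 and 30.1 CPM in resident replicates 3 to 6. It had 34.7 and 16.1 CPM in the Siglec-Fint/CD101- pair, and 13.2 and 11.5 CPM in the SiglecFhi/CD101+ libraries. The SiglecFhi/CD101+ pair was below all 6 other libraries. The fold change against resident was -1.20 ± 1.06 on the log2 scale in SiglecFhi/CD101+ (edgeR adjusted p = 0.576) and -0.17 ± 1.01 in Siglec-Fint/CD101- cells (edgeR adjusted p = 0.949). These values are uncertain, because the copy Ftl1-ps1 is 99.3% identical over the last 300 bases, the 3′ end that CEL-Seq counts. Ftl1-ps1 held 3306 counts against 1498 for Ftl1, and 61.54% to 75.0% of their sum in each library. The sum of both was 79.0, 115, 62.6 and 103 CPM in resident replicates 3 to 6, 96.2 and 63.6 CPM in the Siglec-Fint/CD101- pair, and 49.1 and 46.1 CPM in the SiglecFhi/CD101+ libraries. On that sum too the SiglecFhi/CD101+ pair was the lowest.

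The balance of the ferritin chains was taken as the log2 ratio of Fth1 to Ftl1 counts within a library. It was 5.31, 5.75, 5.24 and 5.60 in resident replicates 3 to 6, 4.86 and 5.77 in the Siglec-Fint/CD101- pair, and 6.07 and 6.38 in the SiglecFhi/CD101+ libraries. Both SiglecFhi/CD101+ values were above all others. The mean was 6.22 ± 0.22 (SD, n = 2) against 5.47 ± 0.24 (SD, n = 4) in resident cells, a difference of 0.75. The exact two-sided permutation p was 0.0667, the smallest that 4 libraries against 2 allow, and 0.267 after Benjamini-Hochberg adjustment over the 4 comparisons. With the copies of both genes added the difference was 0.43, with the same exact p of 0.0667. Siglec-Fint/CD101- cells differed from resident cells by -0.16 (exact permutation p = 0.733). The subsets differed by 0.91 (exact permutation p = 0.333, the smallest that 2 against 2 allow). Both subsets together differed from resident cells by 0.30 (exact permutation p = 0.4, where 4 against 4 allow 0.0286).

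**Figure D3:**
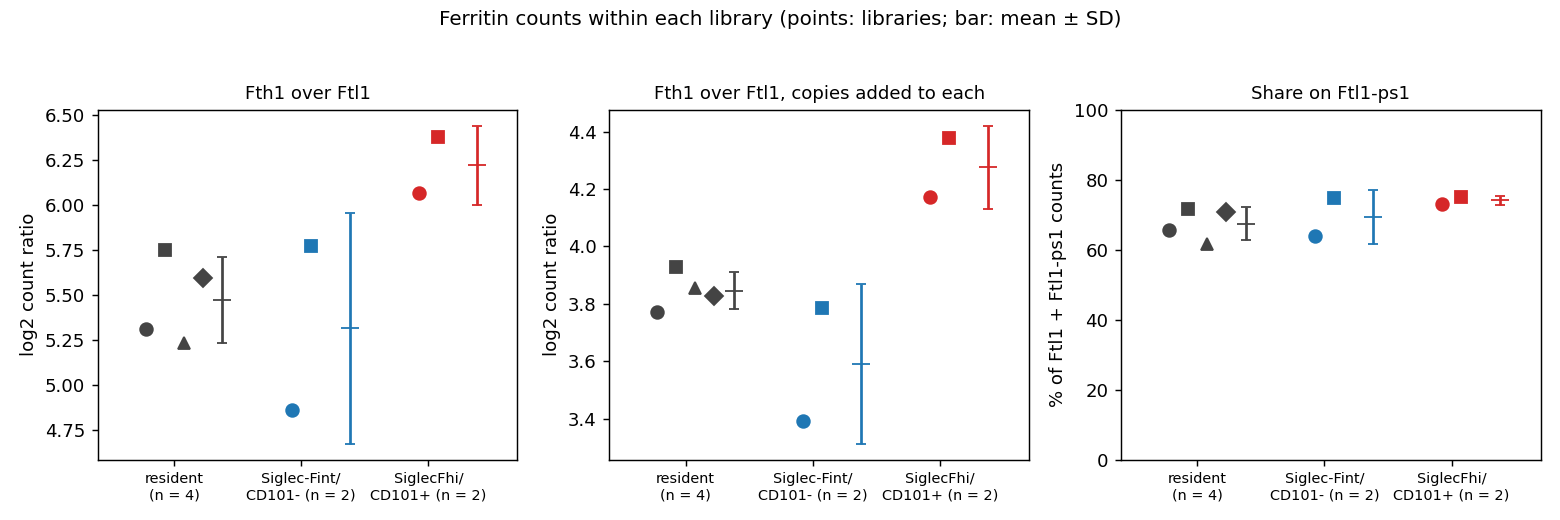
Ferritin counts in the 8 libraries by group: the log2 ratio of Fth1 to Ftl1 counts, the same ratio with the copies of each gene added, and the percent of Ftl1 plus Ftl1-ps1 counts that fell on Ftl1-ps1. Points are libraries and bars are mean ± SD; both ratios are highest in the SiglecFhi/CD101+ libraries (6.07 and 6.38, and 4.17 and 4.38 with copies), and Ftl1-ps1 holds 61.54% to 75.0% of the light chain counts.

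In SiglecFhi/CD101+ against resident cells 1 of the 9 members tested had a positive and 8 a negative fold change, against 36.1% and 63.9% of all genes, with a median of -1.51. An adjusted p under 0.05 was reached by 0 members, and by 0.0254% (higher) and 0% (lower) of all genes. Without adjustment, p was under 0.05 for 1 higher (Slc7a11) and 2 lower (Nfe2l2, Slc3a2), against 3.65% and 13.1% of all genes. The groups did not overlap for 1 higher and 6 lower members, against 6.78% and 27.4%. DESeq2 called 1 member higher and 0 lower, against 4.38% and 5.06% of genes, and limma-voom called 0 members, against 0.0169% of genes higher and 0% lower.

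In Siglec-Fint/CD101- against resident cells 3 of 9 were positive and 6 negative, against 33% and 66.9% of all genes, with a median of -0.46. No member passed the adjusted threshold, which 0.0338% of genes passed upward and 0.0254% downward. Without adjustment, p was under 0.05 for 0 higher and 2 lower members (Nfe2l2, Hmox1), against 1.9% and 13.8% of genes. The groups did not overlap for 1 higher and 2 lower members, against 4.46% and 29.3%. DESeq2 called 0 members higher and 1 lower, against 1.09% and 5.46% of genes, and limma-voom called 0, against 0.0169% and 0%.

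In both subsets against resident cells 1 of 9 was positive and 8 were negative, against 24.6% and 75.4% of genes, with a median of -0.74. No member passed, and 0.0254% of genes passed upward and 0% downward. Without adjustment, p was under 0.05 for 1 higher (Slc7a11) and 2 lower (Nfe2l2, Hmox1), against 1.91% and 21% of genes. All 4 subset libraries lay above all 4 resident ones for Slc7a11 and for 0.702% of genes, and below them for Nfe2l2, Hmox1 and 12% of genes. DESeq2 called 1 member higher and 1 lower, against 1.8% and 6.27% of genes, and limma-voom called 0, against 0.0423% and 0%.

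Between the subsets 2 of 9 were higher and 7 lower in SiglecFhi/CD101+ cells, against 49.3% and 43.8% of genes, with a median of -0.56. No member passed, and 0.00845% of genes passed upward and 0% downward. Without adjustment, p was under 0.05 for 0 higher and 1 lower member (Slc3a2), against 9.98% and 7.96% of genes. The log2 fold changes between the subsets were 5.94 ± 3.34 for Hmox1 (edgeR adjusted p = 0.345, with 0 counts in Siglec-Fint/CD101- cells), and -2.54 ± 1.84 for Gclm, -0.03 ± 1.32 for Txnrd1, -0.66 ± 0.91 for Prdx1 and -1.04 ± 1.18 for Ftl1, these last 4 with edgeR adjusted p from 0.466 to 1. The groups did not overlap for 1 higher (Hmox1, with 3 and 1 counts against 0) and 3 lower members, against 15.8% and 11.9%. DESeq2 called 0 members here, against 7.11% of genes higher and 5.28% lower, and limma-voom called 0 members and 0% of genes.

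**Figure D4:**
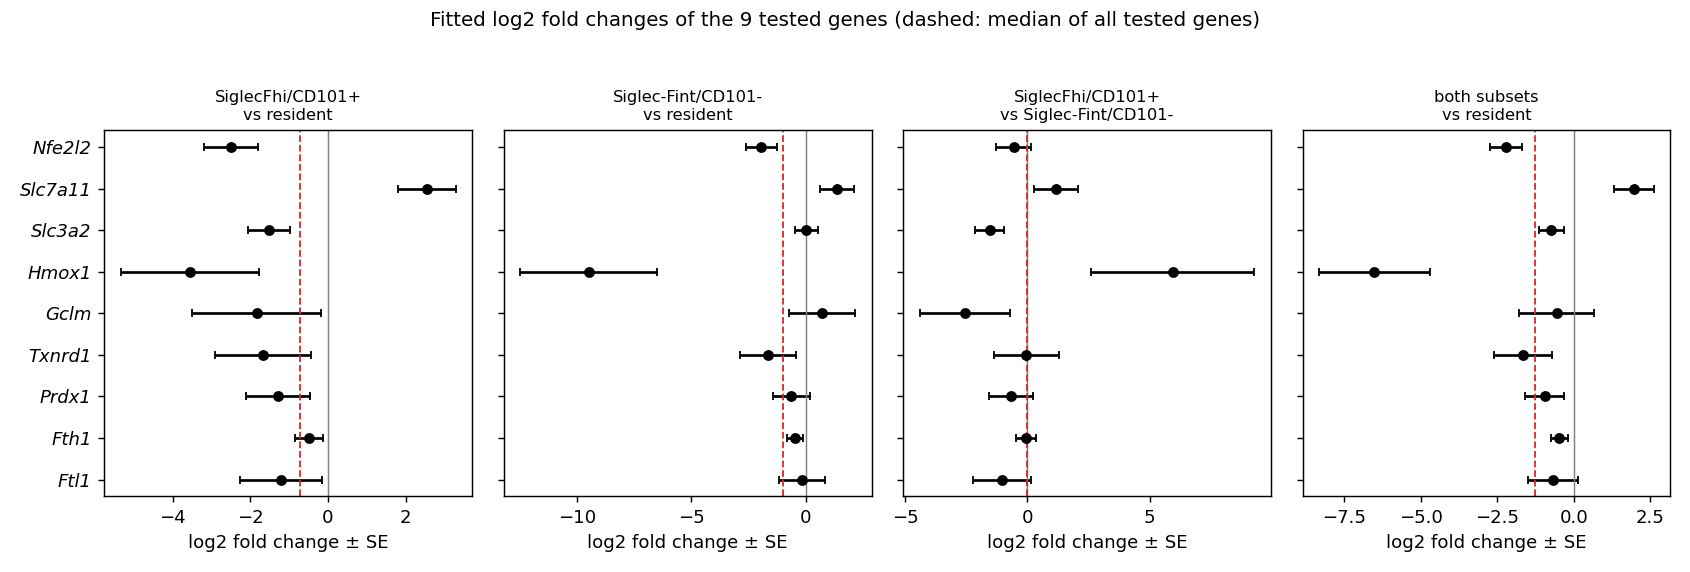
Log2 fold change of the 9 members tested in the 4 comparisons, with bars of 1 standard error from edgeR and the median of all 11828 genes drawn in each panel. Slc7a11 lies above the median gene in all 4 panels, and Nfe2l2 lies below it in all 4; values for Hmox1 against Siglec-Fint/CD101- cells rest on 0 counts there.

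Other genes of the pathway were taken from 8 lists with 72 genes, of which 67 were tested. No gene of these lists passed an adjusted p of 0.05 in any of the 4 comparisons by edgeR. Without adjustment, p was under 0.05 for 1 higher and 8 lower in SiglecFhi/CD101+ against resident cells, 1 and 11 in Siglec-Fint/CD101- against resident cells, 1 and 14 in both together, and 4 and 4 between the subsets. The shares over all genes were 3.65% and 13.1%, 1.9% and 13.8%, 1.91% and 21%, and 9.98% and 7.96% in that order, while the lower calls were 11.9%, 16.4%, 20.9% and 5.97% of the 67 pathway genes. Their median log2 fold changes were -0.48, -0.33, -0.51 and 0 in that order, closer to 0 than the medians of all genes in the comparisons with resident cells.

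Among the 12 regulators and partners of NRF2, Sqstm1 had the smallest p against resident cells. Its product p62 competes for KEAP1, and it is itself an NRF2 target. It had 697, 1072, 518 and 685 CPM in resident replicates 3 to 6, 308 and 203 CPM in the Siglec-Fint/CD101- pair, and 329 and 348 CPM in the SiglecFhi/CD101+ libraries, so no subset library reached the resident range. The value for both subsets was -1.34 ± 0.33 on the log2 scale (edgeR adjusted p = 0.1002). Sqstm1 and Nfe2l2 were thus both below the resident range in all 4 subset libraries, as were 12% of all genes. The Sqstm1 value for both subsets was near that of the median gene (-1.28), at the 49.1st percentile of fold changes. Keap1 was detected with 109, 159, 477 and 88 counts in resident libraries, 0 and 1 in the Siglec-Fint/CD101- pair, and 6 and 50 in the SiglecFhi/CD101+ libraries. Between the subsets it had the smallest p of this list (log2 fold change 5.61 ± 2.13, edgeR adjusted p = 0.243), and this rests on 1 count in Siglec-Fint/CD101- cells.

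In the NADPH list of 6 genes, G6pdx, the entry enzyme of the pentose phosphate pathway, set the SiglecFhi/CD101+ libraries apart. It had 40.9, 31.0, 65.1 and 67.8 CPM in resident replicates 3 to 6, 54.3 and 84.7 CPM in the Siglec-Fint/CD101- pair, and 3.17 and 1.21 CPM (6 and 2 counts) in the SiglecFhi/CD101+ libraries. Its log2 fold change was -4.52 ± 1.09 against resident (edgeR adjusted p = 0.121) and -4.96 ± 1.16 against Siglec-Fint/CD101- cells (edgeR adjusted p = 0.171).

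Several genes of the other lists were present in resident libraries and near 0 in a subset, where the depth was lower. Fech, whose enzyme inserts iron to complete haem, had 121, 383, 191 and 176 counts in resident, 0 in both Siglec-Fint/CD101- and 1 in each SiglecFhi/CD101+ library (both subsets, edgeR adjusted p = 0.1002). Glrx, glutaredoxin, had 168, 450, 335 and 426 counts in the resident libraries, none in either Siglec-Fint/CD101- library, and 2 and 41 in the SiglecFhi/CD101+ libraries (Siglec-Fint/CD101- against resident, edgeR adjusted p = 0.253). Slc7a7, another light chain that pairs with Slc3a2, had 51, 75, 69 and 64 counts in resident libraries and 0 in all 4 subset libraries (both subsets, edgeR adjusted p = 0.107). Abcc1, which exports glutathione conjugates, had 39, 191, 226 and 232 counts in the resident libraries, 29 and 0 in the Siglec-Fint/CD101- pair, and 0 in both SiglecFhi/CD101+ libraries (SiglecFhi/CD101+ against resident, edgeR adjusted p = 0.226). The catalase gene Cat had the smallest p of its list in SiglecFhi/CD101+ against resident cells (log2 fold change -5.01, edgeR adjusted p = 0.258), with 2 and 0 counts in the SiglecFhi/CD101+ libraries. In the remaining lists and comparisons the smallest p belonged to Chac1, Prdx2, Me1, Sod3, Aco1, Slc7a8, Asns or Sesn2, with edgeR adjusted p from 0.152 (Chac1, both subsets) to 0.689 (Sod3, Siglec-Fint/CD101- against resident).

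Atf4, the factor that binds the amino acid response element, had 176, 209, 150 and 249 CPM in resident replicates 3 to 6, 83.9 and 66.1 CPM in the Siglec-Fint/CD101- pair, and 64.4 and 179 CPM in the SiglecFhi/CD101+ libraries. Its value for both subsets was -1.04 ± 0.46 on the log2 scale (edgeR adjusted p = 0.199). For both subsets together Atf4 RNA thus had a negative value and Slc7a11 a positive one. SiglecFhi/CD101+ replicate 2 was the highest subset library for both genes. The 7 tested genes of the ATF4 list had median log2 fold changes against resident of 0.35 in SiglecFhi/CD101+ and -1.04 in Siglec-Fint/CD101- cells. The medians of all genes were -0.72 and -0.997. RNA counts do not measure ATF4 protein, and its part in the Slc7a11 level was not tested.

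**Figure D5:**
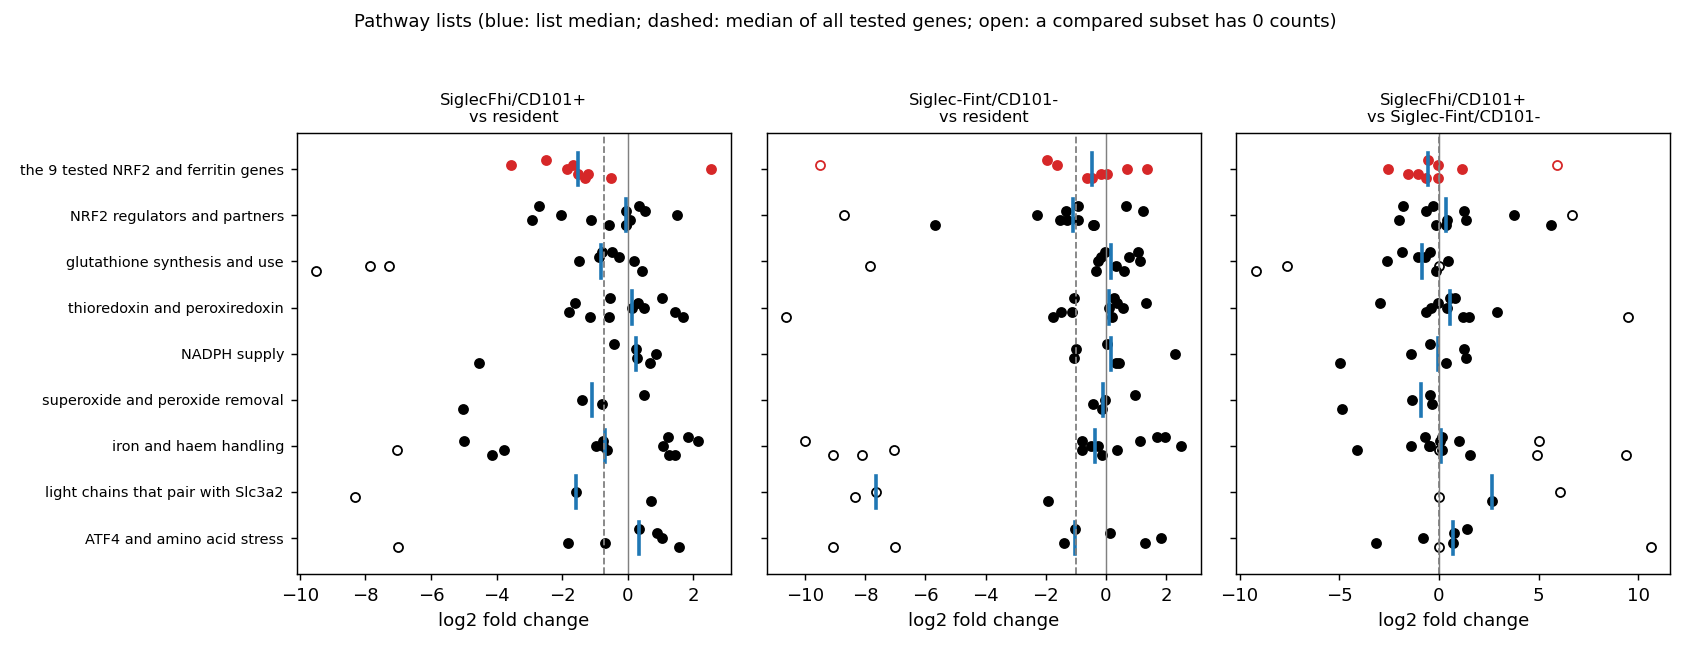
Log2 fold change of the 9 tested members (red) and of the tested genes of the 8 pathway lists (black), 1 point per gene, for each subset against resident cells and for the subsets against each other. Blue bars are list medians, dashed lines the median of all 11828 genes (-0.72, -0.997 and 0) and open points genes with 0 counts in a compared subset; points lie on both sides of 0 in most lists and none passed an adjusted p of 0.05.

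The genes whose pattern was most like that of Nfe2l2 over the 8 libraries, by Pearson correlation of log2 CPM, were Gm6377 (0.984), the heat shock gene Hspa1b (0.980) and Fbxl14 (0.973). Hspa1b had 454, 1131, 524 and 1037 CPM in resident replicates 3 to 6, 362 and 270 CPM in the Siglec-Fint/CD101- pair, and 179 and 248 CPM in the SiglecFhi/CD101+ libraries. Its resident libraries followed the same split as Nfe2l2, with replicates 4 and 6 the higher pair. Resident replicates 4 and 6 also had the highest resident macrophage sums (583 and 519 CPM) and the lowest lung epithelium sums (1008 and 1507 CPM). The part of this content in the split was not tested. For Fth1 the genes most alike were Fn3krp (0.984), C030037D09Rik (0.983) and B630019K06Rik (0.980). These 3 genes were at 0 in resident replicate 5 and in all 4 subset libraries and reached at most 6.10 CPM (C030037D09Rik) elsewhere, so their correlations rest on 3 libraries with values near the floor. Fbxl14 was at 0 in all 4 subset libraries, with 0.977 to 6.81 CPM in resident ones. The correlations share library depth and group differences and are descriptions over 8 points. Within the members, Nfe2l2 and Fth1 correlated at 0.873 and Nfe2l2 and Slc7a11 at -0.624.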

How the data were processed

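The deposited files hold raw counts per gene, 1 file per library. Per the submitters' processing notes, which give no order or role, the authors used FastQC 0.11.5, Trim Galore, cutadapt 1.10, TopHat2 2.1.0, Bowtie2 2.2.6, HTSeq 0.6.1 and DESeq2 1.28.0. For the genome build, the strand setting and any molecular identifiers, the entry is the same: not given in the sources used here. Reads without identifiers are not independent molecules, so count intervals cover counting error only. Symbols matched 54409 of 54446 identifiers through the reference tables. Positions are from GENCODE M21 (GRCm38) and promoters from RefSeq (GRCm38.p6). Of 21197 genes with a count, 11828 passed filterByExpr and were tested.

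Fits used edgeR 4.0.16 (TMM, robust quasi-likelihood) in R 4.3.3, with group means over all 8 libraries, so groups of 2 share one estimate of spread, and Benjamini-Hochberg adjustment over all tested genes. The comparison of both subsets averages the subset means. Standard errors were derived as the size of the log2 fold change over the root of the F statistic. Ratios were tested by exact permutation. Tests were run first on simulated data, with a spread set lower than that of these libraries. That run therefore does not show what could pass here. In these data the common biological coefficient of variation, edgeR's measure of spread between libraries of a group, was 1.12. Alternatives were RLE, upper-quartile and unscaled totals, removal of mitochondrial genes, DESeq2 1.42.0, limma-voom (limma 3.58.1), other count filters, compared groups only, each library left out in turn and a block on replicate number. All 10 members are named, and from each list the gene with the smallest p in a comparison; Hmox2 was added after its values were seen. The members and lists were chosen with earlier results of these data known.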

Additional observations from a re-analysis of the deposited data

Results flagged for a closer look

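A sample far from the other 3 of its group was looked for in the 4 resident libraries with Dixon's gap test, over 12 sets of values, and chance flags about 1 in 20 such sets. It picked out resident replicate 3 for Nqo1 (3.33 CPM, with 0 in the other resident libraries) and for Gclm (11.1 CPM, with 5.32 to 6.00 in the others). With 3 libraries at 0 the test flags any other value, so the Nqo1 flag shows only that replicate 3 had counts. The rate of 1 in 20 does not apply to Nqo1. The test also picked out resident replicate 5 for Txnrd1 (21.5 CPM, with 80.0 to 87.9 in the others). Resident replicate 5 also had the highest sum of lung epithelium markers (14297 CPM, with 1008 to 6408 in the other resident libraries) and the lowest resident level of Nfe2l2 (96.8 CPM) and Fth1 (906 CPM). The part of the epithelial RNA in these levels was not tested.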

How the results depend on the processing

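Nfe2l2 kept its negative and Slc7a11 its positive log2 fold change against resident cells under every alternative run. With 1 library left out at a time, Nfe2l2 ranged from -2.88 to -2.15 and Slc7a11 from 0.82 to 3.2 in SiglecFhi/CD101+ cells.

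No member was called by edgeR with TMM, the count filter and no block. DESeq2 called 1 in SiglecFhi/CD101+ (Slc7a11), 1 in Siglec-Fint/CD101- (Hmox1) and 2 in both subsets against resident cells (Slc7a11 and Hmox1), while limma-voom called 0. In both subsets against resident cells, library totals alone called 2 (Nfe2l2 and Hmox1), testing without a filter called 1 (Nfe2l2) and the fit with a replicate block called 2 (Nfe2l2 and Hmox1). Over all genes these settings called 758, 163 and 1064 lower and 15, 38 and 36 higher, against 0 lower and 3 higher before. Of the pathway genes, DESeq2 called 3 in SiglecFhi/CD101+ and 3 in Siglec-Fint/CD101- against resident cells, 6 between the subsets and 5 for both. Its shares over all genes in that order were 4.38% higher and 5.06% lower, 1.09% and 5.46%, 7.11% and 5.28%, and 1.8% and 6.27%. No filter called 1 in SiglecFhi/CD101+ (G6pdx) and 1 for both (Sqstm1). In SiglecFhi/CD101+ against resident cells, no filter called 253 genes higher and 117 lower of 21197. For both, library totals alone called 6 and the replicate block called 9, beside the calls over all genes given above. The block rests on a number shared only by the subset libraries. Across 11828 genes, the difference of replicate 1 from replicate 2 correlated at 0.00665 between the subsets. With few counts per gene in the subsets, this cannot show whether the numbers pair samples, and the labels do not say.

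Several directions turned, and the cause was not tested. Between the subsets, Fth1 was 0.06 with DESeq2 and with RLE, 0.18 with library totals, 0.0037 without mitochondrial genes, 0.002 with 20 counts in 2 libraries and 0.1 with the compared groups only. Txnrd1 between the subsets was 0.08 with DESeq2, with RLE and with the compared groups only, 0.02 with upper-quartile scaling, 0.01 with 20 counts in 2 libraries, 0.82 with library totals, 1.22 with limma-voom and 1.09 with the replicate block. In Siglec-Fint/CD101- against resident cells, Ftl1 was 0.19 with DESeq2, 0.21 with RLE and 0.13 with upper-quartile scaling. Gclm there was -0.5 with library totals and -0.01 with limma-voom, and Slc3a2 was -0.74 with library totals and -0.04 without a filter.

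With 1 library left out, these crossed 0 in Siglec-Fint/CD101- against resident cells: Slc3a2 (-0.39 to 0.29), Gclm (-2.29 to 1.56), Ftl1 (-0.88 to 0.27) and the log2 ratio of Fth1 to Ftl1 (-0.61 to 0.3). Between the subsets they were Slc7a11 (-0.52 to 1.86), Gclm (-3.49 to 0.35), Txnrd1 (-1.61 to 4.77), Prdx1 (-1.32 to 0.36) and Fth1 (-0.22 to 0.06). A lone library left in a group was assumed to vary like the other groups. Depth limits the subsets, where 3 counts stand for 1.58 to 2.17 CPM.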
